A study of Mus musculus with 26 samples.

Results

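The genes described here encode the digestive and acidifying machinery of the lysosome: soluble acid hydrolases, their cofactors, proteins of the lysosomal membrane, the transcription factor Tfeb and the subunits of the proton pump (V-ATPase). The list held 47 gene names, and a gene was taken as a member when 1 row of the deposited count tables carried its name and no other. This gave 42 members out of 19549 rows: 17 hydrolases, 3 cofactors, 5 membrane proteins, Tfeb and 16 V-ATPase genes, whose names start with Atp6. Glb1, Idua, Sgsh, Ppt1 and Npc1 appeared only in rows that the authors had joined with neighbouring genes, and they were not analysed here. All 42 members passed the filter on low counts in each comparison.

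The material was tumour-associated macrophages of the mouse. PyMT cells, mammary tumour cells driven by the polyoma middle T oncogene, had been placed in an inguinal mammary gland of female FVB mice aged 5 to 7 weeks, and each tumour was weighed on excision. The sort gate took cells with CD11b and F4/80 but without Ly6G, and they were kept in cycloheximide, which holds ribosomes on mRNA, so every library carries that sort and that drug. Polysome libraries hold mRNA bound by 3 or more ribosomes, taken from a sucrose gradient, and total mRNA libraries come from about 10% of the same sorted cells. Each of the 13 tumours gave 1 library of each kind, and all 26 were made with SmartSeq2, a full-length cDNA method without strand marking. The 5 large tumours weighed 1504 to 2245 mg and the 8 small tumours 467 to 841.8 mg, with no weight near the limit of 1000 mg. Experimental batch 2 held 6 tumours (large replicates 3 to 5 and small replicates 6 to 8), and batch 1 held 7 (large replicates 1 and 2 and small replicates 1 to 5). The labels name no genetic change in the host and no untreated tissue, so every group is a tumour macrophage group. The tumours are separate samples, and the labels do not number the mice.

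Lysosomes break down proteins, lipids and glycans that reach them by endocytosis, phagocytosis or autophagy. Most hydrolases are made in the endoplasmic reticulum, tagged with mannose 6-phosphate and sorted to the lysosome, where they need the acid that the V-ATPase provides: its cytosolic V1 sector splits ATP and its membrane V0 sector carries the protons. Tfeb and its relatives bind a palindromic motif, known as the CLEAR element, in the promoters of many of these genes. Macrophages are rich in lysosomes, which digest the cells and debris they engulf.

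Polysome libraries held 7034173 to 28257436 counts and total mRNA libraries 18018519 to 55609113. The members took 0.778 to 4.20% of polysome counts and 1.62 to 3.99% of total mRNA counts. All 8 macrophage markers were detected in all libraries (median in total mRNA 2932 CPM, library-scaled counts, for Csf1r and 7365 CPM for C1qa), while Ly6g was at 0 in 19 of the 26 libraries and its highest total mRNA level was 0.0801 CPM. The other neutrophil markers were mixed. Mpo and Elane were at 0 in 18 and 21 libraries, but S100a8 and S100a9 in only 4 and 5. Csf3r was detected in all libraries, with a median of 70.2 CPM in total mRNA. Small replicate 7 stood apart: its macrophage markers summed to 2921 CPM in polysomes and 7690 CPM in total mRNA, against 12998 to 42473 CPM in the other polysome and 13209 to 33673 CPM in the other total mRNA libraries. Its fibroblast and mammary epithelial markers had the highest sums, 1937 and 889 CPM in polysomes and 2629 and 3987 CPM in total mRNA. Small replicate 1 came next in fibroblast markers, at 422 CPM in polysomes and 1980 CPM in total mRNA. It also had the next lowest macrophage sum in polysomes, 12998 CPM. Without small replicate 7, 7 members were higher and 21 lower in polysome against total mRNA, against 7 and 24 with it. Over all genes, 2840 were higher and 3752 lower without it, against 2741 and 4116 with it. In polysome against total mRNA, 4 of 7 fibroblast markers, 3 of 5 epithelial markers tested and 4 of 8 macrophage markers were lower, and 2 macrophage markers were higher. The part of other cells in the results below was not tested. Lars2, a gene used here only to describe the libraries, took 2.17 to 25.9% of polysome counts and at most 0.902% of total mRNA counts. In 3 total mRNA libraries of batch 2 (small replicates 6 and 7 and large replicate 3) its share was only 0.00304 to 0.00658%. These 3 libraries lay below the other 10 in Arsa, Arsb, Lamp1 and Atp6ap2 and above them in Atp6v0b, Atp6v1c1 and Atp6v1g1. That is 4 members (9.52%) below and 3 (7.14%) above, against 11.5% and 11% of all 12109 genes tested, and calls that ended without these 3 tumours are named below. Without them Arsa (1.33) and Atp6ap2 (-3.09) kept their calls in polysome against total mRNA.

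The motif bound by Tfeb was more frequent in the listed genes than in all promoters. It is known from the promoters of many of these genes, so this describes a known trait and is no independent result. RefSeq promoters (GRCm38.p6, 250 bases before to 50 after the start) were given for 40 of the 47 listed genes, as 46 sequences. The core of the CLEAR element, TCACGTG on either strand, was found in 12 of the 46 (26.1%), against 3.77% of all 32851 promoters, and 10 of the 12 belong to measured members. Every member promoter with the shorter E-box CACGTG held TCACGTG, and TCACGTGA, which contains it, was in 13.0% of member promoters against 0.974% of all. The windows below, 15 bases on each side of the motif, come from genes with unlike calls in polysome against total mRNA. Mcoln1 and Arsa were higher in polysomes, Gla and Atp6v1a lower, and Cln3 and Atp6v0b were not called. Windows were chosen by the motif, so its likeness between them follows from the choice. In batch 2 alone Mcoln1 was not called (0.02). Capitals mark the longest form of the motif, and sequences run 5′ to 3′ on the gene's strand.
Mcoln1 (chr8:3500458-3500495, plus strand): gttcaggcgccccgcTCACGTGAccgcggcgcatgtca
Arsa (chr15:89477420-89477456, minus strand): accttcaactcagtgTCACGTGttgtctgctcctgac
Gla (chrX:134601211-134601248, minus strand): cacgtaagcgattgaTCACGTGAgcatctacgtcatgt
Atp6v1a (chr16:44139369-44139406, minus strand): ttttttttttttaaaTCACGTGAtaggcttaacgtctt
Cln3 (chr7:126583335-126583374, minus strand): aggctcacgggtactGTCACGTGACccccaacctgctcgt
Atp6v0b (chr4:117887345-117887381, minus strand): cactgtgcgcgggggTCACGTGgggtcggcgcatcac
The motif began 46 bases before the start in Mcoln1, 37 before it in Atp6v0b and 123 before it in Cln3, whose longer palindrome, with a further G before and C after TCACGTGA, was in 0.326% of all promoters. Among measured members, the 10 with the motif had a median log2 fold of -0.07 in polysome against total mRNA (2 higher, 3 lower). The 26 with a promoter without it had a median of -0.63 (5 higher, 16 lower). These are descriptions of the letters in the window and carry no test.

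The first comparison asked which members were over- or under-represented among mRNAs bound by 3 or more ribosomes. Lysosomal mRNAs were more often under-represented than over-represented: 24 of the 42 members (57.1%) were lower in polysomes and 7 (16.7%) higher, 31 in all, with a median log2 fold of -0.58. Over all 12109 genes tested, 34% were lower and 22.6% higher, 56.6% in all, and the median was -0.34. A call is an adjusted p below 0.05 in edgeR's quasi-likelihood test with the tumour as block and Benjamini-Hochberg adjustment over all genes tested. In 8 members all 13 polysome libraries lay below all 13 total mRNA libraries (19%, against 2.73% of all genes), and in none did they all lie above (against 1.29% of all genes). Both libraries of a tumour came from the same sorted cells, so these folds are relative to total mRNA of those cells. Between tumours, as in the size comparisons below, fewer cells of a type and less RNA per cell cannot be told apart.

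**Figure D1:**
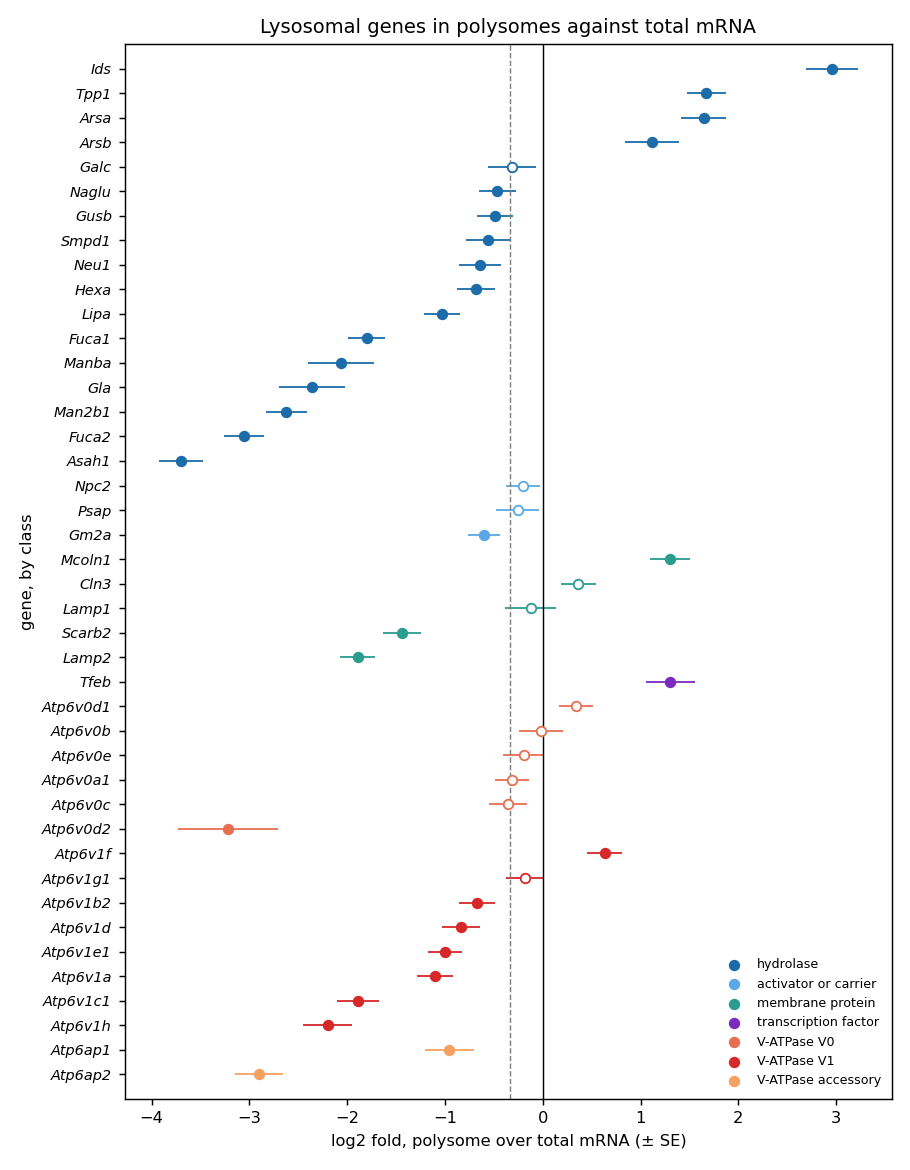
Log2 fold (x axis) of polysome over total mRNA for the 42 members, grouped by class on the y axis; points are edgeR estimates over 13 tumours, bars the standard error, filled points passed an adjusted p of 0.05, and the dashed line is the median of all genes at -0.34. Hydrolases spread from -3.70 (Asah1) to 2.96 (Ids), while 5 of the 6 V0 genes sat near 0.

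Among the 17 hydrolases, 12 were lower in polysomes, 4 higher and Galc was not called, with a median fold of -0.65. The lowest was Asah1, acid ceramidase, which splits ceramide into sphingosine and fatty acid. Its level was 24.8, 40.6 and 101 CPM (lowest, median, highest of 13) in polysomes, against 356, 534 and 1044 CPM in total mRNA. The libraries did not overlap, and the log2 fold was -3.70 ± 0.22 (SE; adjusted p = 1.43e-11, edgeR). The Asah1 gene lies on the minus strand at chr8:41340197-41374773 (GRCm38, GENCODE M21).

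Both fucosidases, which remove fucose from glycans, were lower. Fuca2 had 6.32, 32.4 and 63.3 CPM in polysomes, against 105, 253 and 325 CPM in total mRNA, again without overlap (log2 fold -3.06 ± 0.20, adjusted p = 7.37e-11). Fuca1 had 23.6, 77.7 and 164 CPM in polysomes, against 126, 264 and 495 CPM in total mRNA, and was lower in polysomes in 12 of 13 tumours (-1.80 ± 0.19, adjusted p = 2.59e-08). Of the mannosidases, which trim mannose from glycoproteins, Man2b1 was the more abundant in CPM per kilobase of transcript in both RNA sources. It had 64.0, 317 and 964 CPM in polysomes, against 1227, 2163 and 3372 CPM in total mRNA, without overlap (-2.62 ± 0.21, adjusted p = 4.32e-10). Manba, beta-mannosidase, had 2.02, 12.01 and 34.8 CPM in polysomes, against 2.66, 75.8 and 117 CPM in total mRNA. Its range in total mRNA was wide because small replicates 6 and 7 stood at 2.66 and 3.62 CPM, and its fold was -2.06 ± 0.34 (adjusted p = 1.41e-05).

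Gla, alpha-galactosidase A, the enzyme missing in Fabry disease, had 0.135, 13.6 and 27.3 CPM in polysomes, against 29.5, 46.5 and 136 CPM in total mRNA. The groups did not overlap, and the fold was -2.36 ± 0.33 (adjusted p = 1.86e-06), with 1 count behind the lowest polysome value. Lipa, the acid lipase that frees cholesterol and fatty acids from lipoprotein lipids, had 116, 203 and 605 CPM in polysomes, against 266, 431 and 1035 CPM in total mRNA. It was lower in polysomes in 12 of 13 tumours (-1.03 ± 0.19, adjusted p = 4.67e-05). The remaining called hydrolases fell by less: Hexa, the alpha subunit of hexosaminidase, by 0.68, the sialidase Neu1 by 0.65, the sphingomyelinase Smpd1 by 0.56, beta-glucuronidase (Gusb) by 0.49 and Naglu, an enzyme of heparan sulfate breakdown, by 0.47 on the log2 scale (adjusted p 0.00407 to 0.0390). Neu1 lost the call without large replicate 3 (-0.53), Gusb without any 1 of 3 tumours (-0.43 to -0.38: large replicates 1 and 4 and small replicate 7), and Smpd1 and Naglu without any 1 of 6 and 7 tumours. All 4 lost it without the 3 low-Lars2 tumours, and in batch 1 alone Gusb was at 0.22 and Naglu at 0.05. Neu1 and Smpd1 were called in neither batch alone. Hexa lost its call in batch 1 alone (-0.29) and when the tumour was not used as block (-0.58).

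The 4 hydrolases higher in polysomes were 3 sulfatases and a peptidase. Ids, iduronate 2-sulfatase, which removes sulfate from heparan and dermatan sulfate and is missing in Hunter syndrome, had 126, 234 and 540.4 CPM in polysomes, against 7.45, 35.1 and 199 CPM in total mRNA. It was higher in polysomes in 13 of 13 tumours (2.96 ± 0.26, adjusted p = 1.90e-09), and only 1 total mRNA library, of small replicate 8, reached the range of the polysome libraries. Ids lies on the minus strand at chrX:70343069-70365084 (GRCm38). Tpp1, a peptidase that takes tripeptides from protein ends, had 234, 1525 and 6412 CPM in polysomes, against 197, 471 and 656 CPM in total mRNA (1.67 ± 0.20, adjusted p = 1.25e-07). Its call held in batch 1 alone (2.88, adjusted p = 1.76e-07) but not in batch 2 alone (0.58, adjusted p = 0.122). Arsa, which acts on sulfatide, had 50.0, 78.3 and 284 CPM in polysomes, against 13.2, 31.0 and 95.6 CPM in total mRNA, and was higher in 12 of 13 tumours (1.64 ± 0.23, adjusted p = 1.81e-06). Arsb, which acts on dermatan and chondroitin sulfate, was higher in 11 of 13 tumours (1.12 ± 0.28, adjusted p = 0.00141). It had 60.9, 511 and 1947 CPM in polysomes, against 7.99, 506 and 770.2 CPM in total mRNA, so its medians were nearly equal. Its lowest total mRNA levels, 54.8, 7.99 and 56.1 CPM, were those of the 3 low-Lars2 libraries, and without these tumours the fold was 0.52 (adjusted p = 0.0277).

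**Figure D2:**
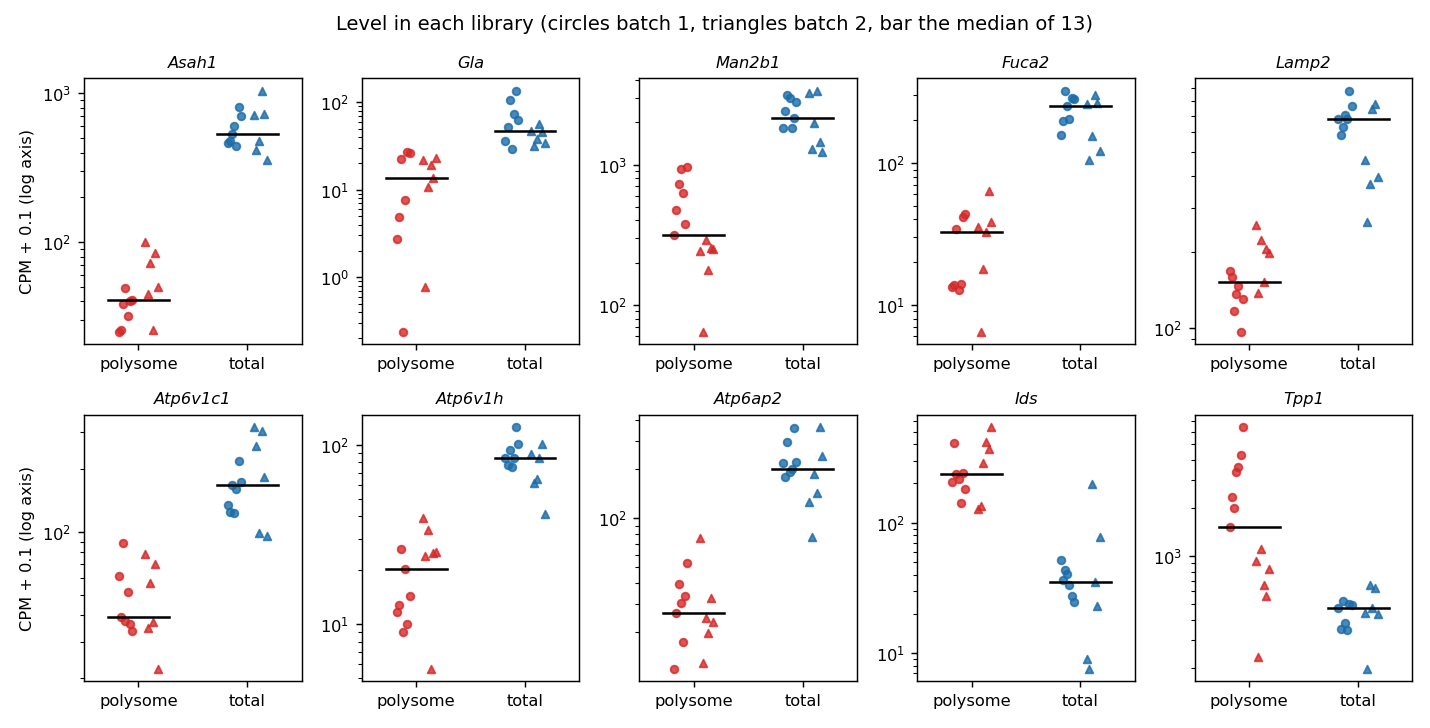
Level in CPM plus 0.1 (log y axis) in each of 13 polysome (left) and 13 total mRNA (right) libraries, for the 8 members whose libraries did not overlap and for Ids and Tpp1; circles are batch 1, triangles batch 2 and the bar is the median. Asah1 stood at 24.8 to 101 CPM in polysomes against 356 to 1044 CPM in total mRNA, and the Tpp1 polysome levels of batch 2 all lay below those of batch 1.

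Of the 3 cofactors, which present lipids to the hydrolases or carry cholesterol, 1 was called. Gm2a, the activator that lifts GM2 ganglioside to hexosaminidase, had 209, 616 and 1339 CPM in polysomes, against 514, 875 and 1655 CPM in total mRNA. It was lower in polysomes in 12 of 13 tumours (-0.61 ± 0.16, adjusted p = 0.00296), a call that was lost without the 3 low-Lars2 tumours (-0.38, adjusted p = 0.0679). Psap, the precursor of the saposins, and Npc2, which hands cholesterol to the membrane, had folds of -0.26 ± 0.22 (adjusted p = 0.323) and -0.20 ± 0.17 (adjusted p = 0.326). By length, Psap was the most abundant member in either source, with median levels of 2609 CPM per kilobase in polysomes and 2866 CPM per kilobase in total mRNA.

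Among the membrane proteins the LAMP pair differed in call. Lamp2, a heavily glycosylated protein of the lysosomal membrane that also serves chaperone-mediated autophagy, had 95.8, 152 and 255 CPM in polysomes, against 263, 676 and 881 CPM in total mRNA. Its libraries did not overlap (-1.89 ± 0.18, adjusted p = 4.49e-09). Lamp1, its closest relative, had 396, 593 and 1207 CPM in polysomes, against 118, 1135 and 2581 CPM in total mRNA, with widely overlapping groups (-0.12 ± 0.26, adjusted p = 0.698). Without the 3 low-Lars2 tumours Lamp1 was lower in polysomes (-0.61, adjusted p = 0.0271), so its call depended on whether these tumours were included. Its difference was above 0 in 4 of 13 tumours, these 3 and large replicate 5 (0.98). The difference between Lamp1 and Lamp2 was not tested.

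Scarb2, the receptor that carries glucocerebrosidase to the lysosome, had 24.3, 92.3 and 175 CPM in polysomes, against 90.0, 247 and 419.6 CPM in total mRNA, and was lower in 13 of 13 tumours (-1.44 ± 0.19, adjusted p = 7.24e-07). Mcoln1, a channel that lets calcium out of the lysosome, had 52.1, 162 and 366 CPM in polysomes, against 32.6, 51.4 and 127 CPM in total mRNA. It was higher in polysomes in 10 of 13 tumours (1.30 ± 0.20, adjusted p = 5.90e-06). Cln3, the protein lost in juvenile Batten disease, was not called (0.36 ± 0.18, adjusted p = 0.0787) but passed the threshold in DESeq2, under RLE and upper-quartile scaling and with a filter at 10 CPM, at 0.40 to 0.44. Tfeb, the transcription factor of the pathway, had 16.5, 74.1 and 144 CPM in polysomes, against 10.3, 21.6 and 143 CPM in total mRNA, and was higher in 10 of 13 tumours (1.30 ± 0.25, adjusted p = 9.60e-05).

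Of the 16 V-ATPase genes, 9 were lower in polysomes, 1 was higher and 6 were not called, with a median fold of -0.76. In the cytosolic V1 sector 6 of 8 genes were lower, with a median of -0.92, and in the V0 sector 1 of 6, with a median of -0.26. The sectors lay closer in batch 2 alone (medians of -0.79 for V1 and -0.42 for V0) than in batch 1 alone (-0.98 and 0.02). Atp6v1h, the regulatory subunit, had 5.54, 20.3 and 38.9 CPM in polysomes, against 41.3, 84.6 and 126 CPM in total mRNA, without overlap (-2.20 ± 0.25, adjusted p = 8.41e-08). Atp6v1c1, a stator subunit known in yeast to leave the pump when it disassembles, had 22.1, 39.3 and 88.7 CPM in polysomes, against 95.6, 167 and 316 CPM in total mRNA, also without overlap (-1.89 ± 0.22, adjusted p = 7.80e-08).

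The catalytic subunit Atp6v1a, which binds ATP, had 62.5, 93.1 and 212 CPM in polysomes, against 133, 225 and 454 CPM in total mRNA, and was lower in 13 of 13 tumours (-1.10 ± 0.18, adjusted p = 1.26e-05). The stalk subunit Atp6v1e1 had 44.5, 110.0 and 167 CPM in polysomes, against 143, 183 and 367 CPM in total mRNA, lower in 13 of 13 tumours too (-0.9996 ± 0.17, adjusted p = 2.43e-05). The rotor subunit Atp6v1d (-0.84 ± 0.20, adjusted p = 0.000727) and the nucleotide-binding subunit Atp6v1b2 (-0.67 ± 0.18, adjusted p = 0.00330) were lower in 12 of 13 tumours each. The other rotor subunit, Atp6v1f, was the 1 pump gene that rose, with 102, 283 and 701 CPM in polysomes, against 93.4, 198 and 249.5 CPM in total mRNA (0.63 ± 0.18, adjusted p = 0.00412). The stalk subunit Atp6v1g1 was not called (-0.18 ± 0.19, adjusted p = 0.431). In batch 2 alone Atp6v1e1 (-0.69), Atp6v1d (-0.52) and Atp6v1f (0.67) were not called, nor was Atp6v1b2 in batch 1 alone (-0.26).

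In the V0 sector the exception was Atp6v0d2, the d subunit best known from osteoclasts. It was the least abundant member, with 0, 1.01 and 3.86 CPM in polysomes, against 1.80, 7.08 and 24.5 CPM in total mRNA, and it was lower in 13 of 13 tumours (-3.22 ± 0.51, adjusted p = 9.10e-06). Its polysome libraries held 0 to 67 counts each. The 5 osteoclast markers together had 3.04 to 90.9 CPM in polysomes of large tumours and 1.90 to 58.6 CPM in those of small tumours, against 3.04 to 259 and 2.32 to 91.9 CPM in total mRNA of large and of small tumours. Among them Calcr and Oscar were at 0 in 21 and 16 of the 26 libraries, while Dcstamp was detected in 24. The 5 other V0 genes, which encode subunit a1, the proteolipids c and c'', the common subunit d1 and subunit e1, had folds of -0.36 (Atp6v0c) to 0.34 (Atp6v0d1), with adjusted p from 0.0905 to 0.942. Atp6v0c has annotated processed pseudogenes, and how shared reads were counted is not given in the sources used here, so its value is uncertain.

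Both accessory proteins, which sit in the membrane sector of the pump, were lower. Atp6ap2, also known as the prorenin receptor, had 11.8, 26.2 and 76.03 CPM in polysomes, against 76.7, 201 and 362 CPM in total mRNA, without overlap (-2.90 ± 0.24, adjusted p = 7.32e-10). Atp6ap1 had 51.2, 431 and 2660.4 CPM in polysomes, against 412, 698 and 1717 CPM in total mRNA, with overlapping groups. It was lower in 8 of 13 tumours (-0.95 ± 0.25, adjusted p = 0.00234), and the call did not hold without the 3 low-Lars2 tumours (-0.50, adjusted p = 0.0651).

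Set side by side, hydrolases and V-ATPase genes did not separate by their typical fold. Per tumour, the median polysome minus total difference averaged -0.73 ± 0.64 over the hydrolases and -0.74 ± 0.29 over the V-ATPase genes (log2, SD, n = 13). The hydrolase median was below 0 in 12 of 13 tumours and the V-ATPase median in 13 of 13, while the median of all genes averaged -0.23 ± 0.14. The hydrolase minus V-ATPase difference ranged from -1.003 to 0.93 and was below 0 in 7 of 13 tumours. The V1 median averaged -1.02 ± 0.32 and was below 0 in 13 of 13 tumours, and the V0 median averaged -0.28 ± 0.68 and was below 0 in 7 of 13. V0 lay below V1 in 3 of the 6 tumours of batch 2 and in 0 of the 7 of batch 1. The classes differed instead in range: fitted folds ran from -3.70 to 2.96 in hydrolases and from -3.22 to 0.63 in V-ATPase genes, with 4 and 1 genes higher. The members were chosen with results known, so these class values carry no test.

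Transcript base composition moved with the fold. Across the 42 members Spearman's rho between the fold and the percentage of G and C in the transcript was 0.51, across all 11093 genes with a value 0.34. It was 0.81 across the 16 V-ATPase genes and 0.19 across the 17 hydrolases. These are correlations across genes measured in the same libraries, so they are given as descriptions without p. The median was 47.3% in the 24 members lower in polysomes, 51.6% in the 11 not called and 55.3% in the 7 higher. Ids went against this, with 41.4% and the highest fold, and Man2b1 too, with 54.1% and a fold of -2.62. When a trend in transcript composition and length was removed from each library, 27 of the 31 calls were kept: Lipa, Gusb, Atp6v1d and Atp6v1f lost theirs, and the V-ATPase median moved to -0.43. It also gave 5 new calls: Atp6v0e (-0.81) and Atp6v0c (-0.42) were lower, and Atp6v0d1 (0.59), Cln3 (0.40) and Atp6v1g1 (0.46, against -0.18 without the correction) were higher. The calls within V0 and V1 thus depend on this correction. The part of composition in the folds was not tested further.

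**Figure D3:**
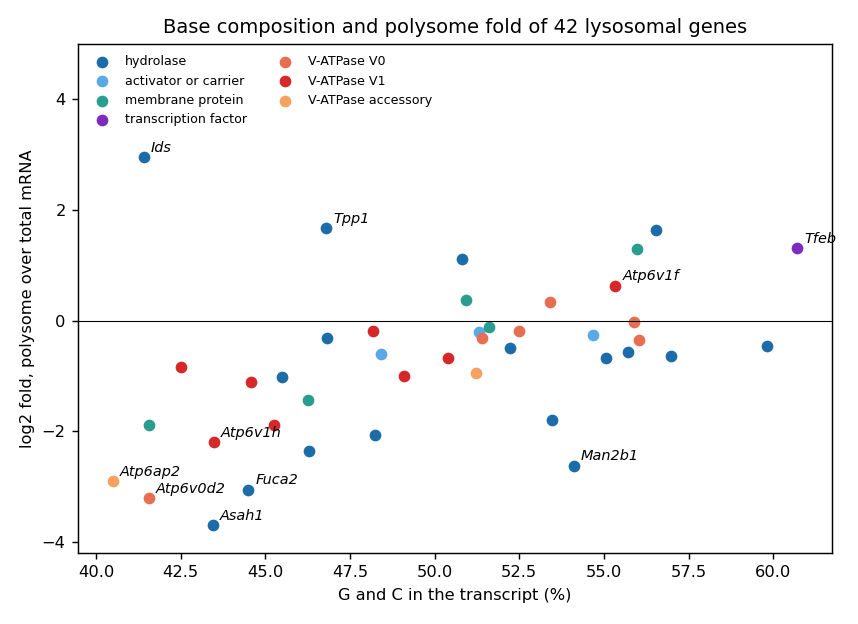
Percentage of G and C in the transcript with the longest coding sequence (x axis) against the log2 fold of polysome over total mRNA (y axis) for the 42 members, coloured by class. The V-ATPase genes rise from Atp6ap2 (40.5%, -2.90) to Atp6v1f (55.3%, 0.63), while Ids (41.4%, 2.96) stands far above members of like composition.

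The batches differed in which members were polysome-enriched. The change of the polysome minus total difference, batch 2 minus batch 1, was below 0 in 8 of the 42 members called (19%, against 6.95% of all genes) and above 0 in 2 (4.76%, against 10.5%). For Tpp1, polysome levels were 234, 742 and 1110.1 CPM in batch 2 (lowest, median, highest of 6), against 1525, 3385 and 6412 CPM in batch 1 (of 7). Total mRNA levels were alike, 197, 455 and 656 CPM in batch 2 and 344, 474 and 522 CPM in batch 1. The difference of log2 folds was -2.23 ± 0.39 (adjusted p = 0.000333), and the tumours of the batches did not overlap.

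Mcoln1 had 52.1, 65.0 and 162 CPM in polysomes of batch 2, against 133, 282 and 366 CPM in batch 1. In total mRNA it had 34.9, 80.7 and 127 CPM in batch 2, against 32.6, 37.6 and 52.3 CPM in batch 1. The difference was -2.60 ± 0.40 (adjusted p = 0.000111), again without overlap between the tumours of the batches, which 2.44% of all genes showed in this direction and 3.91% in the other. In batch 2 alone its fold was 0.02 (adjusted p = 0.975), and in batch 1 alone 2.57 (adjusted p = 1.83e-07). Tfeb followed the same order, with a fold of 0.25 in batch 2 (adjusted p = 0.603) and 2.21 in batch 1 (adjusted p = 3.86e-06). Its difference of -2.17 ± 0.50 (adjusted p = 0.00357) was -1.20 without the 3 low-Lars2 tumours (adjusted p = 0.207).

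Atp6ap1 had 51.2, 228 and 431 CPM in polysomes of batch 2, against 248, 624 and 2660.4 CPM in batch 1, and its total mRNA medians were 779 CPM in batch 2 and 519 CPM in batch 1. Its fold was -2.17 in batch 2 (adjusted p = 0.00221) and 0.35 in batch 1 (adjusted p = 0.305), a difference of -2.47 ± 0.51 (adjusted p = 0.00137) that was -1.69 without the 3 low-Lars2 tumours (adjusted p = 0.0355). The lower value over all tumours is therefore that of batch 2. Psap (-1.58), Man2b1 (-1.37), Gusb (-1.29) and Cln3 (-1.10) were also called lower in batch 2 than in batch 1. Each of these 4 lost the call when a single tumour was left out: Psap, Gusb and Cln3 without large replicate 2 (-1.18, -1.13 and -1.09), Man2b1 without small replicate 7 (-1.18) or the 3 low-Lars2 tumours (-0.61), and Cln3 also without small replicate 3, 4 or 6. Gusb (-1.30, adjusted p = 0.0745) and Cln3 (-0.89, adjusted p = 0.207) also lost it without the 3 low-Lars2 tumours. Psap was lower in polysomes in batch 2 (-1.02, adjusted p = 0.0220) and higher in batch 1 (0.71, adjusted p = 0.0499), which gave its overall fold near 0.

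The members with a larger fold in batch 2 were the LAMP pair. Lamp2 changed by 1.20 ± 0.34 (adjusted p = 0.0173) and Lamp1 by 1.78 ± 0.53 (adjusted p = 0.0212). In total mRNA, Lamp1 had 118, 355 and 2581 CPM in batch 2, against 683, 1204 and 1607 CPM in batch 1. The 3 low-Lars2 libraries held its lowest total mRNA levels, and without these tumours the difference was 0.35 (adjusted p = 0.737) for Lamp1 and 1.29 (adjusted p = 0.0543) for Lamp2. Leaving out small replicate 7 alone ended both calls (1.36 and 1.15), and leaving out small replicate 6 ended that of Lamp1 (1.38). Of the 10 calls, those of Tpp1, Mcoln1 and Atp6ap1 held under every alternative fit run.

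Within batch 2 alone, 3 members were higher and 19 lower in polysomes, against 14% and 15.9% of all genes (29.8% in all). Within batch 1 alone, 10 were higher and 19 lower, against 21.3% and 27.9% (49.2% in all). Called lower in each batch were Asah1, Fuca1, Fuca2, Gla, Man2b1, Lipa, Lamp2, Scarb2, Atp6ap2, Atp6v0d2, Atp6v1a, Atp6v1c1 and Atp6v1h. Called higher in each batch were Ids, Arsa and Arsb. The share of all genes called the same way in each batch was not counted, so these names are given as a description. In batch 2 the Arsb difference was 3.17, 2.92 and 2.72 in the 3 low-Lars2 tumours. It was only 0.38, -0.32 and -0.01 in the other tumours of that batch. Arsb also lost its call over all tumours when the tumour was not used as block (0.79). Summed over the macrophage markers, polysome levels had medians of 21331 CPM in batch 2 and 30452 CPM in batch 1, and total mRNA levels 27663 CPM in batch 2 and 20414 CPM in batch 1. The batch is known only by its number, and what differed in the work was not tested.

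**Figure D4:**
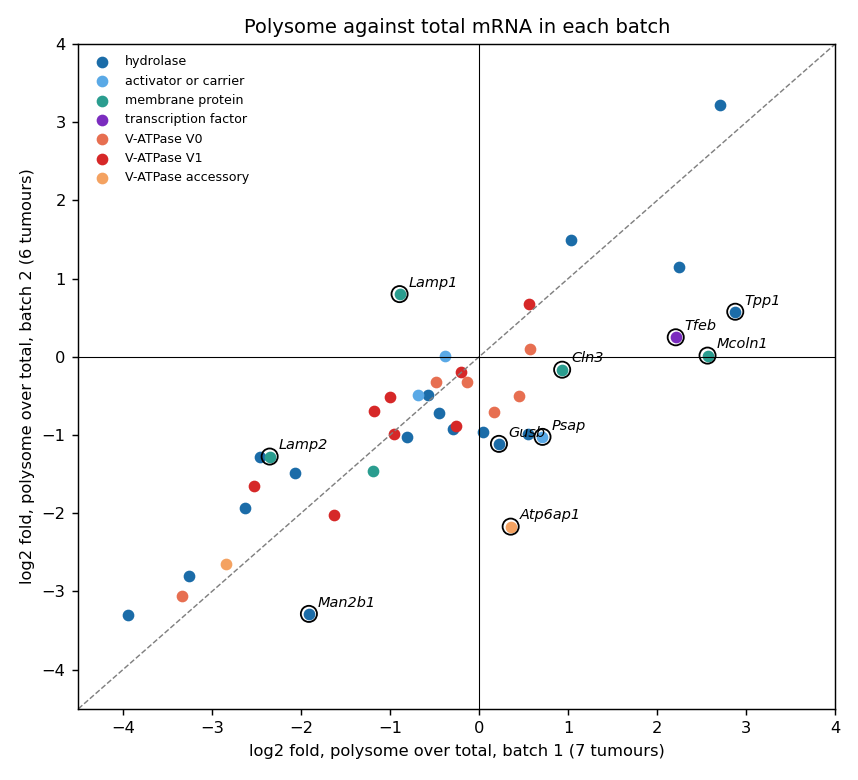
Log2 fold of polysome over total mRNA fitted in batch 2 alone (y axis, 6 tumours) against batch 1 alone (x axis, 7 tumours) for the 42 members; the dashed line marks equal folds and circled, named genes are those whose difference passed an adjusted p of 0.05. Tpp1, Mcoln1, Tfeb and Atp6ap1 lie well below the line, and Lamp1 above it.

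The size comparisons asked whether lysosomal mRNAs differ between macrophages of large and small tumours. No member and no other gene passed the threshold in total mRNA, in polysomes or for the change of the polysome minus total difference (0% of genes called in each, edgeR). At an unadjusted p below 0.05 there were 538 of 11671 genes in total mRNA, 1362 of 10933 in polysomes and 1385 of 12109 for the difference, and DESeq2 called 92 genes higher and 60 lower in polysomes, with no member among them. In polysomes, 32 of the 42 members had a fold above 0, with a median of 0.31, against a median of -0.01 over all genes. The V-ATPase genes were above 0 in 14 of 16, all 6 V0 genes among them, and the hydrolases in 12 of 17. In total mRNA 30 of 42 were above 0, with a median of 0.14 against -0.03 over all genes. The share of all genes above 0 was not counted, and these counts of members carry no test.

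Fuca1 had the lowest p in polysomes. It stood at 77.7, 122, 145, 164 and 137 CPM in polysomes of the 5 large tumours, against 23.6, 49.4 and 97.3 CPM (lowest, median, highest of 8) in small tumours, so 4 of 5 large tumours lay above every small one. The log2 fold was 1.09 ± 0.30 (adjusted p = 0.183), 0.98 in batch 2 alone and 1.06 in batch 1 alone. In total mRNA its fold was 0.01 ± 0.31, and the difference of the differences was 1.09 ± 0.38 (adjusted p = 0.328).

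Fuca2 had 34.3, 43.9, 32.4, 63.3 and 38.5 CPM in polysomes of large tumours, against 6.32, 13.8 and 41.2 CPM in small tumours, with overlapping groups (1.17 ± 0.41, adjusted p = 0.263; 1.18 in batch 2, 1.02 in batch 1). Lipa had 511, 605, 192, 159 and 174 CPM in polysomes of large tumours, against 116, 204 and 242 CPM in small tumours. Its fold of 0.83 ± 0.30 (adjusted p = 0.266) came from the batch 1 tumours at 511 and 605 CPM, since it was -0.00168 in batch 2 alone and 1.48 in batch 1 alone. Atp6v0b, a proteolipid of the proton channel, had 376, 655, 459, 606 and 627 CPM in large tumours, against 133, 323 and 678 CPM in small tumours (0.80 ± 0.36, adjusted p = 0.367).

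In total mRNA the lowest p was that of Manba, with 95.9, 117, 17.4, 75.8 and 40.2 CPM in large tumours, against 2.66, 65.1 and 115 CPM in small tumours (1.43 ± 0.58, adjusted p = 0.865). The fold was 2.43 in batch 2 and 0.24 in batch 1, and the 2 lowest small-tumour values were low-Lars2 libraries. Mcoln1 (-0.60), Lipa (0.53) and Atp6ap2 (0.51) came next, with the same adjusted p of 0.865; Mcoln1 was at -1.25 in batch 2 alone and 0.08 in batch 1 alone. The polysome minus total difference changed most, by p, in Fuca1, Manba (-1.73), Atp6v0b (1.17) and Gla (1.60), with adjusted p of 0.328 to 0.382. Gla differences ranged from -2.25 to -0.57 in large tumours and from -7.36 to -1.11 in small tumours, and the groups overlapped.

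**Figure D5:**
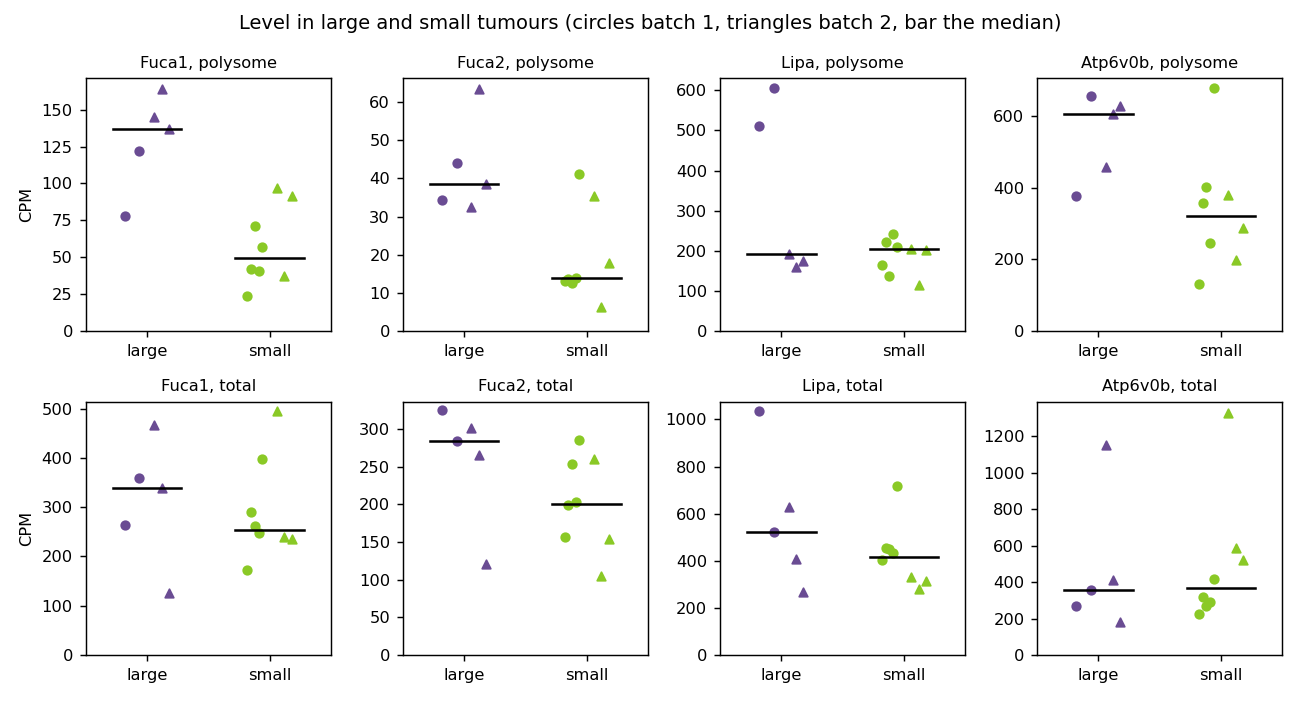
Level in CPM (y axes from 0) of Fuca1, Fuca2, Lipa and Atp6v0b in polysomes (top) and total mRNA (bottom) of 5 large (left) and 8 small (right) tumours; circles are batch 1, triangles batch 2 and the bar is the median. The median of Fuca1 in polysomes was 137 CPM in large and 49.4 CPM in small tumours; none of these differences passed an adjusted p of 0.05.

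By length, the order of the members changed between the RNA sources. In polysomes the highest median levels after Psap were those of Atp6v0c (849.8 CPM per kilobase), Tpp1 (429), Atp6v0e (417) and Atp6v1f (403). In total mRNA they were those of Atp6v0c (996 CPM per kilobase), Hexa (586), Man2b1 (566) and Lamp1 (509). Tpp1 ranked 3 of 42 in polysomes over all tumours, 10 in batch 2 (209 CPM per kilobase) and 2 in batch 1 (951 CPM per kilobase), and 18 in total mRNA over all tumours. Over all tumours, Ids ranked 22 in polysomes and 41 in total mRNA, Man2b1 17 and 4, and Asah1 34 and 15. Within V1, polysome levels ran from 403 CPM per kilobase for Atp6v1f to 9.92 for Atp6v1h, and total mRNA levels from 293 for Atp6v1g1 to 32.4 for Atp6v1d. The polysome levels of these subunits thus covered a wider range than their total mRNA levels.

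Other lysosomal genes, from lists chosen with earlier results known, gave the following counts in polysome against total mRNA. Of 14 further hydrolases and maturation factors tested, 9 were lower and 2 higher (median -1.03), among them the glycosylasparaginase Aga (-1.75) and the acid amidase Naaa (-1.40). Of 16 further membrane proteins, 5 were lower and 4 higher (median -0.26), with the channel Tpcn1 (1.78) and the transporter Abca2 (2.34) higher and the cobalamin exporter Lmbrd1 (-1.50) lower. Of 9 further pump genes and regulators, 3 were lower and 1 higher (median 0.01): Dmxl2, a subunit of the complex that reassembles the pump, rose by 1.69, and the V0 subunits Atp6v0a2 (-0.54) and Tcirg1 (-0.47) were lower.

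Of 11 genes of mannose 6-phosphate tagging and sorting, 2 were lower and 3 higher (median -0.12). The sorting receptor Sort1 was higher (1.97), while Nagpa, which uncovers the mannose 6-phosphate tag, was lower (-1.30), as was the receptor M6pr (-1.18). Of 16 genes of lysosomal nutrient sensing and Tfeb relatives, 5 were lower and 4 higher (median -0.17). Tfe3, a relative of Tfeb, was higher (1.94 ± 0.17, adjusted p = 2.19e-09), and the Ragulator subunit Lamtor3 (-1.85) and the GTPase Rraga (-1.32) were lower. Over all genes 34% were lower and 22.6% higher.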

How the data were processed

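Macrophages of 13 tumours gave 26 libraries. The authors deposited raw read counts per gene for each library, with genes of shared reads joined in 1 row, and a log2 column that equals log2 of the count plus a constant in each library and was not used. HISAT, HISAT2, limma and the build mm10 are named in the submitters' processing notes, without role or version, and the counting tool is not given in the sources used here. Counts were tested with edgeR 4.0.16 in R 4.3.3 (filterByExpr, TMM scaling, robust quasi-likelihood F-test, Benjamini-Hochberg adjustment over all genes tested, threshold 0.05). The fit of polysome against total mRNA had the tumour as block and terms for RNA source by batch and by size. Both libraries came from the same tumour, whose residuals had a median correlation of 0.249 over tumours, against -0.0167 for different tumours. Size fits within 1 RNA source had batch as covariate. Levels are CPM on TMM-scaled totals, differences per tumour used a prior count of 1, and levels per kilobase used the transcript with the longest coding sequence (GENCODE M21). Alternatives were other scalings and filters, DESeq2 1.42.0, limma 3.58.1, single batches, left-out tumours and tumour weight, and scripts were tested on simulated data. Members and gene lists were chosen with earlier results of these data known. Values by library are given for up to 4 called members per class with the largest fold and the 4 members with the lowest p in each other comparison; further members named were chosen after their values were seen. P-values of the size fits within 1 RNA source measure the spread between tumours. Those of the fits with the tumour as block measure the spread between tumours of the polysome minus total difference.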

Additional observations from a re-analysis of the deposited data

Results flagged for a closer look

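Within the 8 small or the 5 large tumours, 1 tumour stood far from the others in its polysome minus total difference (log2 CPM) in 4 of 84 groups tested. Chance flags about 1 in 20 groups. Manba was 2.98 in small replicate 6, at 21.3 CPM in the polysome library and 2.66 CPM in the total mRNA library, while the other small tumours lay between -3.55 and -0.59. Atp6ap2 was -0.73 in the same tumour, where the libraries held 76.03 CPM (polysome) and 126 CPM (total mRNA), and -4.196 to -2.58 in the others. The total mRNA library of this tumour is 1 of the 3 with the lowest Lars2 share. Smpd1 was -2.06 in small replicate 1, where polysomes held 6.97 CPM and total mRNA 29.3 CPM, and -0.78 to 0.36 in the others. Atp6v1f was 1.49 in small replicate 5, where polysomes held 701 CPM and total mRNA 249.5 CPM, and -0.23 to 0.43 in the others.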

How the results depend on the processing

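For members called in a comparison (or the 4 with the lowest p where none was), 1152 values under alternatives kept direction and side of the threshold, 82 lost the call and 5 changed sign. These changes of sign were, in polysome against total mRNA in batch 1 alone, Atp6ap1 (0.35), Gusb (0.22) and Naglu (0.0461), and in the size comparisons Mcoln1 in total mRNA of batch 1 (0.0826) and Lipa in polysomes of batch 2 (-0.00168). Of the 31 calls in polysome against total mRNA, 13 held in every alternative run, and of the 10 calls between batches 3 did; the causes were not tested. Over all 42 members, 7 folds changed sign in batch 1 alone (also Psap, Galc, Atp6v0a1 and Atp6v0b) and 3 in batch 2 alone (Cln3, Lamp1 and Npc2). At least 1 alternative gave a call to 7 members not called in polysome against total mRNA and to 9 not called between batches. In batch 2 alone 1690 genes were higher and 1916 lower, with 3 members and 0 V-ATPase genes higher. V-ATPase genes higher numbered 2 under RLE scaling, the 10 CPM filter, DESeq2, batch 1 alone, without the 3 low-Lars2 tumours and with the composition trend removed. Hydrolases lower numbered 7 in batch 1 alone. The V-ATPase median was -0.37 in batch 1 alone and -0.43 with the composition trend removed. The median of all genes was -0.78 with no filter, -0.0891 with the 10 CPM filter and -0.16 in batch 2 alone. Without the tumour as replicate block, 7 hydrolases were lower, the median of all genes was -0.18, and 1 member was higher and 4 lower between batches. Between batches, 465 genes were higher and 400 lower without the 3 low-Lars2 tumours, with 0 members higher and 5 lower, and DESeq2 called 1435 genes lower. Leaving out 1 tumour gave 837 to 1314 genes higher, 548 to 1000 lower, 0 to 4 members higher and 5 to 11 lower; small replicate 6 set the lowest gene counts. For size, the change of the difference gave 8 genes higher with no filter, and 76 higher and 53 lower in DESeq2. In polysomes it gave 3 genes higher with no filter, 1 with log2 weight, and 92 higher and 60 lower in DESeq2; leaving out 1 tumour gave 0 to 39 higher and 0 to 3 lower, the highest without small replicate 5. Counts of 0 to 67 in polysomes limit Atp6v0d2, and 1 count stands behind the lowest Gla level.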
